A study of Solanum lycopersicum with 15 samples.

Results

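MYB proteins are DNA-binding transcription factors. In plant roots, members of the R2R3 class control the barrier cell types: in Arabidopsis, MYB36 is needed in the endodermis for the Casparian strip, the lignin ring that seals the space between endodermal cells, and MYB41 and MYB92 promote suberin, a waxy wall polymer. In tomato, *SlMYB41*, *SlMYB63* and *SlMYB92* are known as regulators of suberin in the exodermis, the outermost cortical layer, which also carries a polar cap of lignin. Transcripts of 8 MYB genes, of 34688 genes in the table, were followed here: *SlMYB36* (Solyc07g006750), *SlMYB36-b* (Solyc04g077260), *SlMYB13* (Solyc03g093890), *SlMYB68* (Solyc11g069030), the MYB gene Solyc06g074910, *SlMYB92* (Solyc05g051550), *SlMYB41* (Solyc02g079280) and *SlMYB63* (Solyc10g005460). Not all of these 8 MYB genes are known barrier regulators. In the study, mutants of *SlMYB36* lacked the Casparian strip, those of *SlMYB36-b* did not, and neither had a changed lignin cap. They were taken by identifier, but the choice was made with earlier results of these data known. Solyc06g074910, in addition, is a gene that the study displayed among those raised in both mutants on these same libraries. Its rise is therefore not independent evidence. The study's guide table gives the name SlMYB13 to Solyc03g093890 and also to Solyc08g008480, which was not analysed here, and a figure legend calls Solyc03g093890 a form of SlMYB54, a name that the guide table gives to Solyc10g081320. Here *SlMYB13* means Solyc03g093890 and *SlMYB54* means Solyc10g081320. The same legend calls Solyc02g079280 a form of SlMYB107, and here that gene is *SlMYB41*.

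The material was hairy roots that *Rhizobium rhizogenes* had induced on tomato, cultivar M82. There were 3 genotypes: wild type, transformed without a vector, and CRISPR/Cas9 mutants of *SlEXO1* (Solyc09g011120), which encodes a C2H2 zinc finger protein, and of *SlSCZ* (Solyc04g078770), the homologue of the Arabidopsis heat shock factor gene *SCHIZORIZA*. Each mutant genotype was represented by 2 alleles, *slexo1-hr6* and *slexo1-hr7* or *slscz-hr5* and *slscz-hr12*, each of which is a single hairy root line, and each line and the wild type gave 3 libraries, 15 in all. Every library pooled the terminal 3 cm of 6 to 7 root tips grown on medium with sucrose and was read from the 3′ ends of transcripts (QuantSeq). In such bulk samples, fewer cells of a type and less RNA per cell cannot be told apart.

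The guide sequences behind the compared lines are shown because they define the mutants. Capitals mark the 12 bases at the 3′ end, which lie next to the PAM of Cas9. The *SlMYB13* guides belong to the gene that fell most in *slscz* among the 5 tested MYB genes. They come from the study's separate screen of hairy root mutants and were not used in these libraries. In that screen, which also held mutants of *SlMYB68* and *SlMYB41*, the study saw a lignin phenotype only for *SlEXO1*.
SlEXO1 guide 1: gcttttgcTGAAGATGCAGC
SlEXO1 guide 2: gagcacttGGAGGGTGTATA
SlEXO1 guide 3: tgcctctgGGGTTCCAATTA
SlSCZ guide 1: tattgtttCTTGGGGTGAAG
SlSCZ guide 2: cattcataTCATACGGGTTC
SlSCZ guide 3: acccgagtAATTATAACCCG
SlMYB13 guide 1: catggaggCGATCATAAAGA
SlMYB13 guide 2: tgaaatatGGCATCTGGAAC
SlMYB13 guide 3: tcaacctcTTCCGTGGTAAA

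The forward cloning primers of 3 of the MYB genes begin at or just before a start codon, and the first 17 bases from that codon are shown for the family likeness, with capitals at the positions where the sequences differ. Of the 17 bases, 15 were the same in all 3, and *SlMYB41* and *SlMYB36-b* shared 16. Reads came from the other end of the transcript, so these bases were not the ones counted.
SlMYB36-b: atgggGagagctccTtg
SlMYB41: atgggTagagctccTtg
SlMYB68: atgggAagagctccAtg

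The libraries held 2726538 to 8942819 counts (median 4800477), and the deepest was wild-type library 3. Libraries are named by their number in the table, 2 to 4. Levels are given as CPM, the counts scaled to a common library size after TMM normalization. After a filter on low counts, 16189 genes were tested with limma-voom across all 15 libraries, and calls required a 1.3-fold or larger change and an adjusted p (Benjamini-Hochberg, over all of them) of 0.05 or less. Of the 8 MYB genes, 5 passed the filter, while *SlMYB92*, *SlMYB41* and *SlMYB63* were too low. Solyc06g074910, with at most 5 counts in a wild-type library, passed only through the mutant libraries, where it was higher. The edited genes were not lower in their own mutants: the log2 fold change of *SlEXO1* in *slexo1* was 0.57 (SE 0.38, limma-voom adjusted p = 0.383) and that of *SlSCZ* in *slscz* was 0.18 (SE 0.29, adjusted p = 0.735). Because the mutations introduce early stop codons, these levels do not check the labels.

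In *slscz*, *SlMYB13*, *SlMYB36*, *SlMYB36-b* and *SlMYB68* fell, and Solyc06g074910 rose. In *slexo1*, of the tested MYB genes only Solyc06g074910 was called, and it rose. The levels of all 8 genes in each library are plotted by line.

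**Figure D1:**
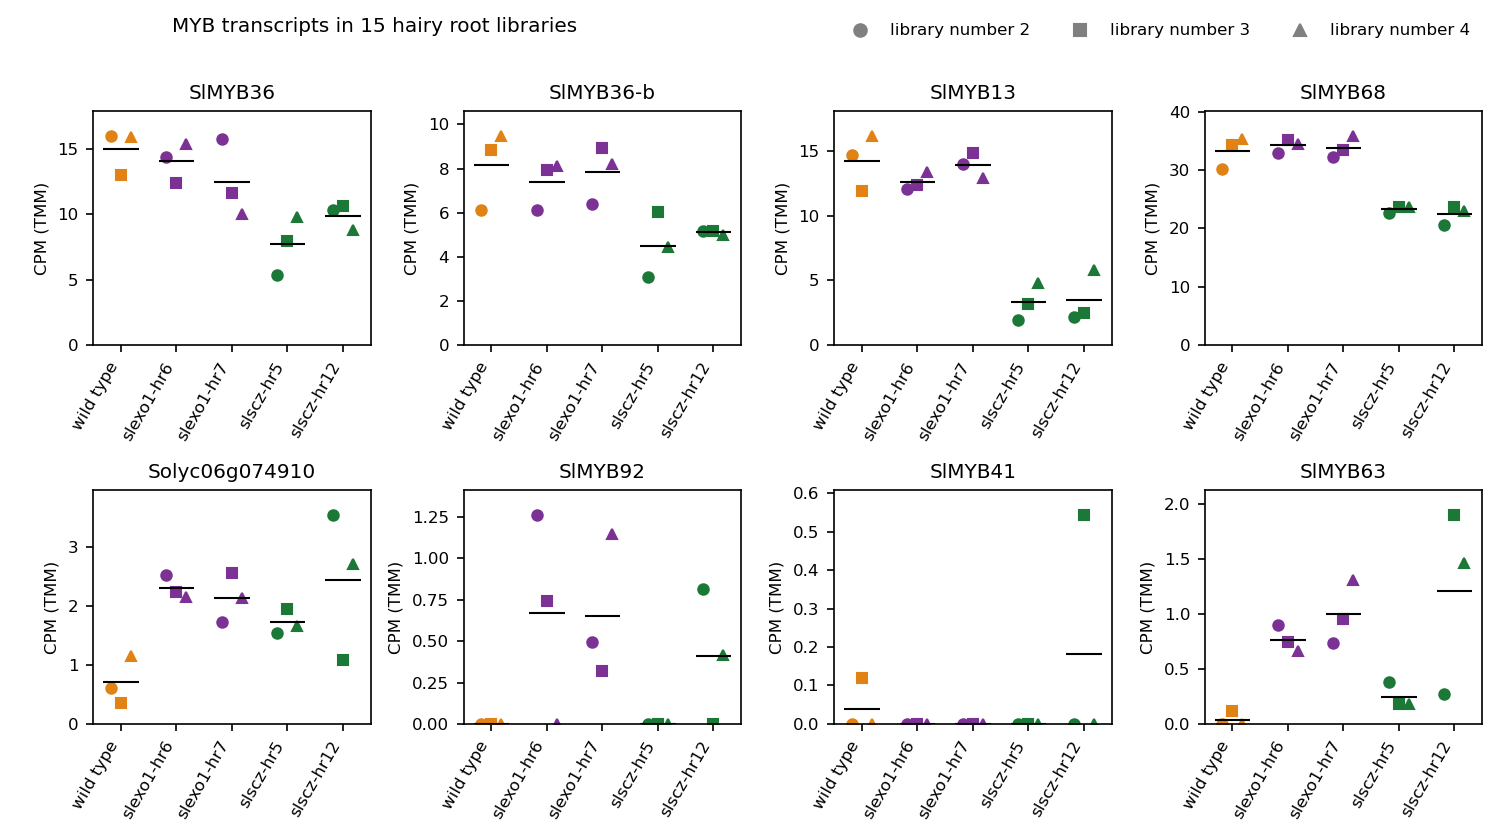
CPM after TMM of the 8 MYB genes (y axis, a linear scale of its own for each gene) in the 3 libraries of each of the 5 line groups (x axis); the symbol gives the library number in the table and the horizontal line the mean of the group. For *SlMYB13*, the 6 *slscz* libraries sit between 1.92 and 5.84 CPM and the other 9 libraries between 11.9 and 16.2 CPM.

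*SlMYB13* showed the largest change of the tested MYB genes. Its levels in wild type were 14.7, 11.9 and 16.2 CPM in libraries 2, 3 and 4. In *slexo1* they were 12.1, 12.4 and 13.4 CPM in line hr6 and 14.0, 14.8 and 13.0 CPM in line hr7. In *slscz* they were 1.92, 3.20 and 4.80 CPM in line hr5 and 2.17, 2.44 and 5.84 CPM in line hr12. All 6 *slscz* libraries lay below every other library, and in both lines library 4 was the highest. The transcript was 3.95-fold lower in *slscz* than in wild type (log2 fold change -1.98, SE 0.24, limma-voom adjusted p = 9.93e-06). It was 3.83-fold lower in *slscz* than in *slexo1* (log2 fold change -1.94, adjusted p = 1.16e-06). Of the 7716 genes with a negative fold change in *slscz* against wild type, it ranked 59th by p-value and 121st by fold. Leaving out the mutant libraries numbered 4 gave a log2 fold change of -2.41 against wild type (adjusted p = 9.09e-06). In *slexo1* it had a fold change of 0.97 against wild type with a 95% interval from 0.76 to 1.23 (adjusted p = 0.900).

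*SlMYB68* was lower by a smaller factor in *slscz*, with little spread between libraries. Its levels in wild type were 30.1, 34.2 and 35.3 CPM. In *slexo1* they were 33.0, 35.2 and 34.5 CPM in line hr6 and 32.2, 33.3 and 35.8 CPM in line hr7. In *slscz* they were 22.6, 23.6 and 23.6 CPM in line hr5 and 20.6, 23.6 and 22.9 CPM in line hr12. The *slscz* libraries again lay below all the others. The change was 1.46-fold lower against wild type (log2 fold change -0.54, SE 0.10, limma-voom adjusted p = 0.000842) and 1.48-fold lower against *slexo1* (log2 fold change -0.57, adjusted p = 2.87e-05). The narrow interval in *slexo1* against wild type, a fold change of 1.02 (95% interval 0.89 to 1.17, adjusted p = 0.908), did not reach the fold change of 0.69 seen in *slscz*.

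*SlMYB36*, the homologue of the Arabidopsis activator of Casparian strip genes, was 16.0, 13.0 and 15.9 CPM in wild type. In *slexo1* it was 14.4, 12.4 and 15.4 CPM in line hr6 and 15.8, 11.6 and 10.01 CPM in line hr7. In *slscz* it was 5.37, 7.99 and 9.78 CPM in line hr5 and 10.3, 10.6 and 8.76 CPM in line hr12. Every *slscz* library was below every wild-type library, but the *slscz* and *slexo1* libraries overlapped, through *slexo1-hr7* library 4. Against wild type it was 1.64-fold lower in *slscz* (log2 fold change -0.71, SE 0.19, limma-voom adjusted p = 0.0123), and against *slexo1* it was 1.47-fold lower (log2 fold change -0.56, adjusted p = 0.0128). In *slexo1* against wild type the fold change was 0.90 (95% interval 0.70 to 1.15, adjusted p = 0.612).

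*SlMYB36-b*, named for its relation to *SlMYB36*, changed by a like amount on fewer counts. It was 6.14, 8.83 and 9.46 CPM in wild type. In *slexo1* it was 6.12, 7.92 and 8.09 CPM in line hr6 and 6.40, 8.93 and 8.20 CPM in line hr7. In *slscz* it was 3.07, 6.04 and 4.43 CPM in line hr5 and 5.16, 5.16 and 5.01 CPM in line hr12. All 6 *slscz* libraries were below the lowest of the other libraries, by a small gap: the highest of them reached 6.04 CPM and the lowest of the others 6.12 CPM. The fall in *slscz* was 1.68-fold against wild type (log2 fold change -0.75, SE 0.21, limma-voom adjusted p = 0.0174) and 1.55-fold against *slexo1* (log2 fold change -0.63, adjusted p = 0.0117). The call against wild type was lost without wild-type library 3 (log2 fold change -0.70, adjusted p = 0.11) and without wild-type library 4 (adjusted p = 0.0641), and that against *slexo1* without the mutant libraries numbered 4 (log2 fold change -0.55, adjusted p = 0.106). In *slexo1* against wild type the fold change was 0.92 (95% interval 0.70 to 1.201, adjusted p = 0.724).

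The MYB gene Solyc06g074910 moved the other way and in both mutants. It had 2, 3 and 5 counts in the wild-type libraries, or 0.61, 0.36 and 1.15 CPM. In *slexo1* it was 2.52, 2.23 and 2.15 CPM in line hr6 and 1.72, 2.55 and 2.13 CPM in line hr7. In *slscz* it was 1.53, 1.95 and 1.66 CPM in line hr5 and 3.53, 1.09 and 2.71 CPM in line hr12. All *slexo1* libraries were above wild type, while *slscz-hr12* library 3 fell within the wild-type range. The gene rose 3.52-fold in *slexo1* (95% interval 1.79 to 6.94, log2 fold change 1.82, SE 0.47, limma-voom adjusted p = 0.0169) and 3.16-fold in *slscz* (95% interval 1.57 to 6.34, log2 fold change 1.66, SE 0.48, adjusted p = 0.0215). Both calls rested on wild-type library 3: without it, the log2 fold changes were 1.17 (adjusted p = 0.272) and 1.01 (adjusted p = 0.312). Between the mutants the fold change of *slscz* against *slexo1* was 0.90 (95% interval 0.59 to 1.35, adjusted p = 0.724).

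Counted over the tested MYB genes, 4 of 5 were called lower and 1 of 5 higher in *slscz* against wild type, where 8.37% of all tested genes were called lower and 6.84% higher. In *slexo1* against wild type, 1 of 5 was called higher and 0 lower, beside 3.89% of all tested genes called higher. For the 4 uncalled genes, limma-voom gave unadjusted p-values of 0.366 to 0.805, none under 0.05. In *slscz* against *slexo1*, 4 of 5 were called lower, beside 12.8% of all tested genes. These shares describe genes chosen with earlier results of these data known. The gene called higher, Solyc06g074910, passed the filter only through mutant libraries, so its calls are not independent evidence. Every *slscz* library was below every wild-type library for 4 of the 5, and this held for 9.65% of all tested genes; against *slexo1* it held for 3 of the 5 and for 7.55% of all tested genes. The 5 tested MYB genes had a median log2 fold change of -0.71 in *slscz* against wild type and -0.04 in *slexo1* against wild type, where the medians over all tested genes were 0.02 and 0.03. Both comparisons share the wild-type libraries, while *slscz* against *slexo1* uses none of them as an arm and had a median of -0.57. The fold changes and their intervals are plotted for the 3 comparisons.

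**Figure D2:**
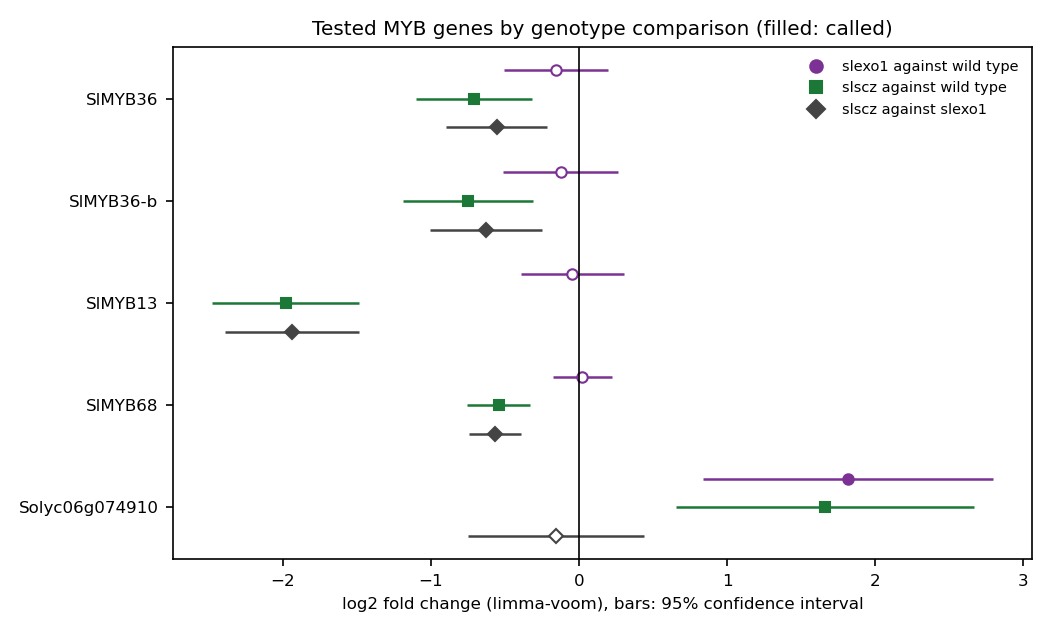
log2 fold change (x axis) of the 5 tested MYB genes (y axis) in each mutant compared with wild type and in *slscz* compared with *slexo1*, from limma-voom; bars are 95% confidence intervals and filled symbols mark called changes. *SlMYB13* lies at -1.98 and -1.94 in the comparisons that involve *slscz* and at -0.04 in *slexo1*, and Solyc06g074910 lies to the right in both mutants.

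The alleles were then compared, since each is a single root line. *SlMYB13* was called lower in both *slscz* lines, with log2 fold changes of -1.97 in hr5 (limma-voom adjusted p = 0.000389) and -2.00 in hr12 (adjusted p = 0.000636). *SlMYB68* was also called in both, at -0.51 (adjusted p = 0.00936) and -0.57 (adjusted p = 0.00636). *SlMYB36* was called in hr5 alone, at -0.85 (adjusted p = 0.0171), and was -0.56 in hr12 (adjusted p = 0.105). *SlMYB36-b* was -0.81 in hr5 (adjusted p = 0.0515) and -0.69 in hr12 (adjusted p = 0.102), and was called in neither. For all 4 genes, the 3 libraries of either *slscz* line were below the 3 wild-type libraries. This restates by line the separation of all *slscz* libraries from wild type, which held for 9.65% of all tested genes. The share for a single line was not computed.

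Solyc06g074910 was called higher in *slexo1-hr6* (log2 fold change 1.86, limma-voom adjusted p = 0.0304) and in *slscz-hr12* (1.84, adjusted p = 0.0351). It was not called in *slexo1-hr7* (1.77, adjusted p = 0.0566) or in *slscz-hr5* (1.49, adjusted p = 0.0830). Of all tested genes, the *slexo1-hr6* comparison with wild type called 8.94% in either direction, that of *slexo1-hr7* 4.80%, that of *slscz-hr5* 11.9% and that of *slscz-hr12* 10.5%. None of the 5 tested MYB genes was called between the lines of a genotype, where 0.346% of tested genes were called between the *slexo1* lines and 0.105% between the *slscz* lines; no unadjusted p of these 10 tests was under 0.05. For *SlMYB13* the fold change of hr5 against hr12 was 1.02 with a 95% interval of 0.56 to 1.83, so a difference between the alleles of up to that size was not detectable.

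**Figure D3:**
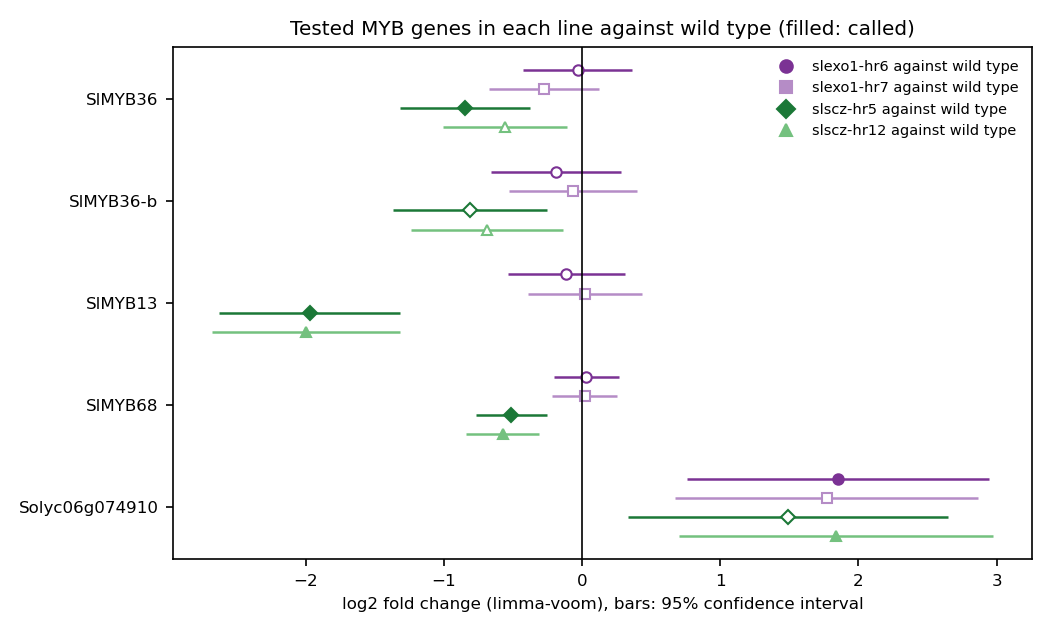
log2 fold change (x axis) of the 5 tested MYB genes (y axis) in each of the 4 lines against the same 3 wild-type libraries, from limma-voom with 5 line groups; bars are 95% confidence intervals and filled symbols mark called changes. For *SlMYB13* both *slscz* lines lie near -2, at -1.97 and -2.00, and for *SlMYB36-b* no line is filled.

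Ordered by mean level, wild type and both *slexo1* lines stood above both *slscz* lines for *SlMYB36*, *SlMYB36-b*, *SlMYB13* and *SlMYB68*. For *SlMYB13* the means were 14.3 ± 2.15 CPM in wild type, 13.9 ± 0.94 in *slexo1-hr7*, 12.6 ± 0.69 in *slexo1-hr6*, 3.48 ± 2.04 in *slscz-hr12* and 3.30 ± 1.44 in *slscz-hr5* (SD, n = 3 libraries each). For *SlMYB68* they ran from 34.2 ± 1.14 CPM in *slexo1-hr6* over 33.8 ± 1.80 in *slexo1-hr7* and 33.2 ± 2.76 in wild type to 23.3 ± 0.55 in *slscz-hr5* and 22.4 ± 1.56 in *slscz-hr12*. In both orders the only neighbours whose libraries did not overlap were those on either side of the step to *slscz*. For *SlMYB36* the order was wild type (14.97 ± 1.70 CPM), *slexo1-hr6* (14.1 ± 1.52), *slexo1-hr7* (12.5 ± 2.96), *slscz-hr12* (9.89 ± 0.99) and *slscz-hr5* (7.71 ± 2.21), and all neighbours overlapped.

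For *SlMYB36-b* the means fell from 8.14 ± 1.76 CPM in wild type and 7.85 ± 1.304 in *slexo1-hr7* to 7.38 ± 1.09 in *slexo1-hr6*, 5.11 ± 0.09 in *slscz-hr12* and 4.51 ± 1.48 in *slscz-hr5*. Here, too, only the step between *slexo1-hr6* and *slscz-hr12* was free of overlap. For Solyc06g074910 wild type was lowest, at 0.71 ± 0.41 CPM, and the next, *slscz-hr5* at 1.72 ± 0.21, did not overlap with it. The other line means were 2.14 ± 0.41 CPM in *slexo1-hr7*, 2.30 ± 0.20 in *slexo1-hr6* and 2.44 ± 1.24 in *slscz-hr12*, with overlapping libraries.

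The 3 MYB genes below the filter included the suberin regulators. *SlMYB63* had 0, 1 and 0 counts in the wild-type libraries. It had 5, 3 and 4 counts in *slexo1-hr6* and 3, 6 and 8 in *slexo1-hr7*. In *slscz-hr5* it had 1 count in each library, and in *slscz-hr12* it had 1, 7 and 7. All 12 mutant libraries held at least 1 count of *SlMYB63*, against 1 of 3 wild-type libraries, and the line *slscz-hr12* held 15 of the 18 *slscz* counts.

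Summed over libraries, *SlMYB63* was at 0.90 CPM in *slexo1* and 0.70 CPM in *slscz*, against 0.06 CPM in wild type. With 1 wild-type count, the ratio to wild type was 14.4 in *slexo1* (95% counting interval 2.39 to 590) and 11.1 in *slscz* (1.76 to 464), and that of *slscz* to *slexo1* was 0.77 (0.40 to 1.44). When limma-voom was fitted to all 24756 genes with any count, *SlMYB63* was called higher in *slexo1* (adjusted p = 0.00543), where 2.02% of genes were, and in *slscz* (adjusted p = 0.0280), where 3.67% were. With edgeR on the same genes it was called in *slexo1* (adjusted p = 0.0376, 2.52% of genes called higher) and not in *slscz* (adjusted p = 0.0602, 4.16% called higher). With limma-voom and a filter of 1 CPM in 3 libraries the call in *slscz* was also lost (adjusted p = 0.142) and that in *slexo1* was kept (adjusted p = 0.0428). *SlMYB63* met that filter only through mutant libraries, as wild type reached at most 0.12 CPM. The kept call is therefore not independent evidence of a rise. Counting intervals leave out the spread between libraries, and reads without molecular identifiers are not independent molecules.

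*SlMYB92* had 0 counts in all 3 wild-type libraries, which allows up to 0.188 CPM over the group (3 counts). It had 7, 3 and 0 counts in *slexo1-hr6* and 2, 2 and 7 in *slexo1-hr7*. It had 0 counts in each *slscz-hr5* library and 3, 0 and 2 in *slscz-hr12*. The transcript was thus counted in 5 of 6 *slexo1* libraries and in 2 of 6 *slscz* libraries. The *slexo1* level of 0.65 CPM was at least 3.48-fold higher than wild type when set against that floor with its 21 counts taken as exact, and the 95% counting interval of the ratio began at 2.59. The ratio of *slscz* to *slexo1*, from 5 and 21 counts, was 0.30 (95% counting interval 0.09 to 0.81). Without a filter, the rise in *slexo1* did not pass the threshold with limma-voom (adjusted p = 0.0799) or edgeR (adjusted p = 0.0629), nor did *slscz* against *slexo1* (adjusted p = 0.172 and 0.195).

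*SlMYB41* was at the limit of detection. Its 3 counts in all 15 libraries were 1 in wild-type library 3 and 2 in *slscz-hr12* library 3. The 6 *slexo1* libraries held 0 counts, which allows up to 0.0935 CPM over the group, and no difference was detectable at this depth.

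SlCASP1, SlCASP2 and SlCASP3, homologues of the Arabidopsis Casparian strip membrane proteins, were read beside the MYB genes. In the study's reporter lines *SlCASP2* was mainly endodermal, *SlCASP1* was also seen in some cortical and exodermal cells, and *SlCASP3* was active in cortex and exodermis as well as endodermis and its protein did not mark the strip. The sum of the 3 is therefore not a level of the endodermis alone, and *SlCASP3* made up 59.5% to 73.1% of it. Their summed level was 77.4 to 99.4 CPM in wild type, 36.9 to 64.5 CPM in *slexo1* (median 48.8) and 71.8 to 115.9 CPM in *slscz* (median 101.9), and each of the 3 was detected in every library. *SlCASP1* fell in *slexo1* (log2 fold change -0.98, limma-voom adjusted p = 0.00324), as did *SlCASP3* (-0.74, adjusted p = 0.012), while *SlCASP2* was at -0.65 (adjusted p = 0.217). In *slscz* against wild type *SlCASP1* was at -0.06 (adjusted p = 0.871), *SlCASP2* at -0.45 (adjusted p = 0.383) and *SlCASP3* at 0.21 (adjusted p = 0.465). The summed level of the 3 genes was thus lowest in *slexo1*, in which *SlMYB36* was not called, and none of them was called in *slscz*, in which *SlMYB36* fell. By line, *SlCASP2* was at -0.78 in *slscz-hr5* (limma-voom adjusted p = 0.164) and -0.09 in *slscz-hr12* (adjusted p = 0.903). Its *slscz-hr5* libraries all lay below wild type, without a call. *SlMYB36* was called only in that line, but its libraries in both *slscz* lines lay below wild type. Between the *slscz* lines neither gene was called (limma-voom adjusted p = 0.99 for each). In hr5 and hr12, *SlCASP1* was at 0.12 and -0.25 and *SlCASP3* at 0.20 and 0.22. A link between *SlMYB36* and the 3 genes was not tested. The part of endodermal cell number in the MYB results was not tested.

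Of the 7 Casparian strip genes listed, 5 were tested, among them *SlSGN3*, a receptor kinase gene of barrier surveillance, and *SlSHR*, the homologue of the Arabidopsis endodermal regulator *SHORT-ROOT*. In *slexo1* against wild type 2 of 5 were called lower and 0 higher, beside 4.95% of all tested genes called lower. In *slscz* against wild type 0 of 5 were called; limma-voom gave 0 of them an unadjusted p under 0.05. Against *slexo1*, *SlCASP1* (log2 fold change 0.92, adjusted p = 0.000325) and *SlCASP3* (0.95, adjusted p = 5.92e-05) were higher in *slscz*, beside 11% of all tested genes.

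The other MYB genes of the guide screen were read as a neighbouring list. Of 5, 3 were tested: *SlMYB107-b*, *SlMYB77* and *SlMYB54*. In *slexo1* against wild type only *SlMYB54* was called, and it was lower, beside 4.95% of all tested genes called lower. It was 8.80 ± 2.05 CPM in wild type (SD, n = 3), 3.87 ± 0.99 CPM in *slexo1* (n = 6) and 9.65 ± 1.75 CPM in *slscz* (n = 6). The fall in *slexo1* was 2.09-fold (log2 fold change -1.07, SE 0.22, limma-voom adjusted p = 0.00378), and *slscz* exceeded *slexo1* by 2.44-fold (log2 fold change 1.29, adjusted p = 3.29e-05). Of all tested genes, 11% were called higher in *slscz* against *slexo1*. No *slexo1* library overlapped with the others. *SlMYB54* (Solyc10g081320) was thus low in *slexo1*, whereas *SlMYB13* (Solyc03g093890) was low in *slscz*.

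Suberin and lignin genes that the study displayed as raised in the mutants were counted beside the MYB genes. They were picked on these libraries, so their direction is not independent evidence. Of 8, 7 were tested; in *slexo1* 2 were called higher and 0 lower (3.89% of all tested genes were called higher), and in *slscz* 4 were called higher and 0 lower (6.84%). The 2 in *slexo1* were *SlGPAT4*, an acyltransferase gene of suberin monomer synthesis (log2 fold change 2.25, limma-voom adjusted p = 0.0268), and the 4-coumarate ligase gene Solyc07g008360 (1.81, adjusted p = 0.0475).

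In *slscz* the 4 were the peroxidase gene Solyc07g049240 (log2 fold change 1.99, limma-voom adjusted p = 0.000652), the fatty acyl-CoA reductase gene Solyc09g009580 (2.27, adjusted p = 0.0312), the phenylpropanoid gene Solyc03g097500 (adjusted p = 0.0394) and *SlLAC3-like*, a laccase gene (adjusted p = 0.0416). The last of these had 1 count in wild type, 52 in *slexo1* and 38 in *slscz*. Solyc03g097500 and *SlLAC3-like* had like values in *slexo1*, without passing the threshold (adjusted p = 0.0555 and 0.0579 from limma-voom). The log2 fold change of *slscz* against *slexo1* was 0.03 (95% interval -0.96 to 1.02) for Solyc03g097500 and 0.04 (-1.02 to 1.10) for *SlLAC3-like*. Between the mutants, the reductase (log2 fold change 1.74, adjusted p = 0.00617) and the peroxidase (2.17, adjusted p = 1.21e-05) were higher in *slscz* and the ligase lower (-2.36, adjusted p = 0.00151).

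**Figure D4:**
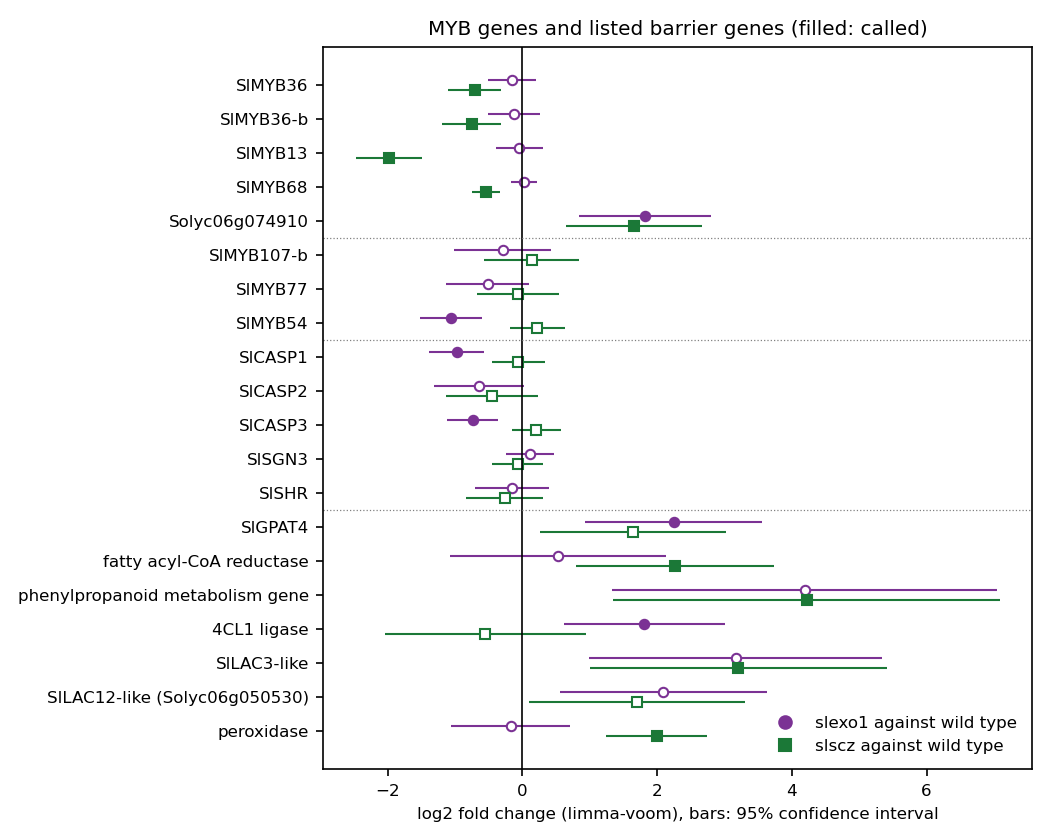
log2 fold change (x axis) in *slexo1* (circles) and *slscz* (squares) against the same wild-type libraries for the tested MYB genes, the other screened MYB genes, the Casparian strip genes and the suberin and lignin genes (y axis, separated by dotted lines), from limma-voom; bars are 95% confidence intervals and filled symbols mark called changes. *SlMYB13* lies at -1.98 in *slscz* and -0.04 in *slexo1*, whereas *SlMYB54* lies at -1.07 in *slexo1* and 0.22 in *slscz*.

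Across the 5 line means, the likeness of each tested MYB gene to the other listed genes was described by Pearson's r of log2 CPM. The points share libraries and genotypes, and 5 points carry little weight. The most similar gene was *SlMYB36-b* for *SlMYB36* (r = 0.95), *SlMYB13* for *SlMYB36-b* (r = 0.98), *SlMYB68* for *SlMYB13* (r = 0.99) and *SlMYB13* for *SlMYB68* (r = 0.99). The first 4 of these values restate the fall in *slscz*, since the 5 means include it, and add no support to it. For Solyc06g074910 it was the phenylpropanoid gene Solyc03g097500 (r = 0.95), which was displayed by the study for the same rise.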

How the data were processed

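QuantSeq 3′ libraries from 15 hairy root samples were analysed. The authors trimmed reads with Trimmomatic, pseudo-aligned them to ITAG 4.1 cDNA sequences with kallisto (0.46.2 in the submitters' processing notes; fragment length 200, SD 30) and deposited estimated counts per gene, not normalized. These were rounded; the counts of all 8 MYB genes were already whole. Columns were matched to lines by name. The wild-type columns are numbered 2 to 4 and the wild-type samples 1 to 3, so these columns were used as a group. The labels and methods call libraries of a line biological replicates, and p-values measure the spread between libraries. The genotype model pooled the 6 libraries of the 2 lines of a mutant. Its p-values therefore do not measure the spread between independently edited lines.

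Computed here, with R 4.3.3, limma 3.58.1 and edgeR 4.0.16: filterByExpr by genotype (minimum count 10, minimum total 15), TMM, and voom, lmFit, contrasts.fit and eBayes on all 15 libraries, with 3 genotypes or with 5 line groups. On data simulated for *slscz* against wild type, with 15894 genes tested, 69 of 100 genes changed 2-fold and 96 of 100 changed 4-fold were called. Another 16 genes, simulated without a change, were also called. The simulation had no term for the line. Intervals and floors (95%, 3 counts) cover counting error only. The alternatives included DESeq2 1.42.0 and its size factors, edgeR's quasi-likelihood test, library size alone, no filter, 1 CPM in 3 libraries, no fold threshold, line as a random effect, quality weights, compared genotypes only, mutant libraries numbered 4 left out, the replicate block and each library left out. edgeR without a filter was added after seeing the data.

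The MYB genes and lists were chosen with earlier results of these data known. Named were all 8 MYB genes, listed genes called in any genotype comparison, and for each tested MYB gene the listed gene with the highest r. Of the 30 listed genes 28 were in the table; 2 were not analysed here. None of the MYB identifiers (0 of 8) matched the gene table used for names, so positions and protein sequences are not given.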

Additional observations from a re-analysis of the deposited data

Results flagged for a closer look

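Each MYB gene was examined for a library far from the others within the 6 libraries of a mutant genotype, which gave 15 tests, and chance flags about 1 in 20. That rate does not hold for the genes near 0 counts, *SlMYB41*, *SlMYB92* and *SlMYB63*. *SlMYB68* in *slscz-hr12* library 2 was 20.6 CPM, below the other 5 *slscz* libraries. Those lay between 22.6 and 23.6 CPM. In wild type and in every mutant line, the library numbered 2 was the lowest for *SlMYB68*. *SlMYB41* in *slscz-hr12* library 3 was 0.54 CPM, which is 2 counts where the other 5 *slscz* libraries had 0. With 0 counts in 5 of 6 libraries, any count in the remaining library is flagged, so this flag carries no information.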

How the results depend on the processing

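Over the 15 member comparisons, 374 alternative values kept their direction and side of the threshold and 5 lost the call (all given in the report). Another 5 changed sign, all in *slexo1* against wild type and none called: *SlMYB13* (log2 fold change -0.04 as reported) was 0.0805 with library size only and -0.247 to 0.0388 when single libraries were left out (above 0 without wild-type library 4), and *SlMYB68* (0.02) was -0.0156 with the mutant libraries numbered 4 left out and -0.0391 to 0.0423 when single libraries were left out (below 0 without wild-type library 2 and without *slexo1-hr7* library 4). The number of MYB genes called in *slexo1* rose from 1 to 2 with no filter and with the filter of 1 CPM in 3 libraries; in *slscz* it rose from 5 to 6 with no filter and stayed 5 with 1 CPM. When single libraries were left out in turn (15 fits), MYB genes called were 0 to 1 in *slexo1*, 3 to 5 in *slscz* and 4 to 4 in *slscz* against *slexo1*. In *slexo1* 738 to 1602 genes were called, and in *slscz* 1438 to 2630, both lowest without wild-type library 3, and were 943 in *slexo1* without wild-type library 2 and 895 without library 4. Leaving out the mutant libraries numbered 4 gave 1431 genes in *slexo1-hr7* (777 with them). Same-numbered libraries of different lines correlated in their deviations at r = -0.0564 to 0.415, over 0.1 in 9 of 18 pairs: in all 6 pairs numbered 4 (0.119 to 0.415), 3 of 6 numbered 2 and 0 of 6 numbered 3, against 2 of 36 pairs of different numbers. Same-numbered libraries, most of all those numbered 4, thus shared some variation. The main model held no term for the number, and the wild-type columns and samples are numbered differently. With the replicate block in the 12 mutant libraries, 4 MYB genes and 3594 genes were called in *slscz* against *slexo1* (4 and 3579 without it), and 26 genes between the *slscz* lines (17 in the main model). Compared genotypes only gave no value for Solyc06g074910 in *slscz*, which that filter removed. At these depths, changes in *SlMYB41*, *SlMYB92* and *SlMYB63* rest on few counts.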
